A study of Homo sapiens with 6 samples.

Results

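The transcripts described here encode 10 enzymes that make serine and move its carbon through the folate pathway. They were taken by gene symbol from a table of 16934 genes measured by RNA sequencing, and all 10 were found. Of these enzymes 6 act in the cytosol (PHGDH, PSAT1, PSPH, SHMT1, MTHFD1 and TYMS) and 4 in mitochondria (SHMT2, MTHFD2, MTHFD1L and ALDH1L2). The libraries came from A375, an established human melanoma cell line with an activating BRAF mutation, grown in medium with added glutamine and heat-inactivated fetal bovine serum. Of the 6 libraries, 3 were from cells edited by CRISPR-Cas9 with a guide RNA (sgRNA) against POLK, the gene of the error-prone DNA polymerase kappa, and 3 from cells edited with a non-targeting control sgRNA. Both groups carry the melanoma background and went through editing, and where in POLK the guide cuts is not stated in the labels. The comparison asks which transcripts differ once polymerase kappa is targeted. The columns of each group share 1 name stem, so each group may be 1 edited population, and the p-values set the group difference against the spread between 3 libraries, which may be technical.

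Cells make serine from the glycolytic intermediate 3-phosphoglycerate in a chain of PHGDH, PSAT1 and PSPH. The hydroxymethyltransferases SHMT1 and SHMT2 then split serine into glycine and a carbon unit that is carried on tetrahydrofolate, in the cytosol and in mitochondria. In mitochondria MTHFD2, MTHFD1L and ALDH1L2 turn that unit into formate or carbon dioxide, formate passes to the cytosol, and MTHFD1 loads it onto folate again for purine synthesis, for methionine and, through TYMS, for thymidylate. Proliferating cancer cells, melanomas among them, are known to draw heavily on this pathway, and some carry extra copies of PHGDH. The transcription factor ATF4, which amino acid shortage induces, is known to raise many of these genes.

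Library totals ranged from 42852645 to 56891905 counts. For the 9 pairs of libraries across groups chi-square divided by its degrees of freedom was 63.2 to 76.2, against 1.98 to 4.02 for the 6 pairs within a group, so no library repeated another. POLK fell to 78.1% of its control level, at 18.2 ± 1.0 CPM (counts scaled to 1000000 per library) with the POLK sgRNA and 23.3 ± 0.842 CPM with the control sgRNA (SD, n = 3 each). The log2 fold change was -0.36 (edgeR adjusted p = 7.9e-08), and an mRNA level does not measure editing. Of the melanocyte lineage markers SOX10 and MITF were present, at 1155 and 32.9 CPM with the POLK sgRNA and 1060 and 28.3 CPM with the control sgRNA. The pigment genes PMEL, MLANA, TYR, TYRP1 and DCT averaged under 1 CPM in both groups. Control library 1 stood apart, with 19 TYR counts against 0 in every other library. It had 64 DCT counts, against 2 and 1 in control libraries 2 and 3, and the cause was not tested. The summed level of the 10 melanocyte markers was 1320 to 1381 CPM with the POLK sgRNA and 1180 to 1204 CPM with the control sgRNA, and 6 of the 9 tested rose and 1 fell. The summed level of 7 leukocyte markers was 1799 to 1814 CPM in the POLK sgRNA libraries and 1069 to 1132 CPM in the control libraries, most of it CD74. Of the 4 leukocyte markers tested 3 rose and 1 fell. CD68 rose to 39.3 CPM with the POLK sgRNA, against 14.0 CPM with the control sgRNA, and LYZ to 19.7 CPM with the POLK sgRNA, against 3.42 CPM with the control sgRNA, while PTPRC, CD3E, CD14 and ITGAM averaged under 1 CPM in both groups. Keratinocyte, fibroblast and endothelial marker sums were 99.8 to 104, 27.1 to 27.3 and 5.84 to 6.27 CPM with the POLK sgRNA, against 82.5 to 86.4, 15.6 to 16.1 and 3.04 to 3.99 CPM with the control sgRNA, and the part of any of these markers in the results below was not tested. Among these markers KRT10, KRT14, COL1A1, PDGFRB, KDR and VWF averaged 94.4, 7.42, 4.34, 16.7, 3.11 and 1.67 CPM with the POLK sgRNA, against 80.0, 3.93, 3.84, 10.6, 1.64 and 1.13 CPM with the control sgRNA. LUM averaged 4.50 CPM with the POLK sgRNA and 0.423 CPM with the control sgRNA, and DCN 1.11 CPM with the POLK sgRNA and 0.0902 CPM with the control sgRNA. The other keratinocyte, fibroblast and endothelial markers in the table averaged under 1 CPM in both groups. Of the markers tested, 2 of 3 for keratinocytes rose and none fell. For fibroblasts 3 of 5 rose and 1 fell, and for endothelium 4 of 5 rose and 1 fell. All these marker counts stand beside 32.8% of all genes tested that were higher and 31.6% that were lower. No marker in the table was at 0 in all 6 libraries.

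Of the 10 enzyme transcripts 5 rose with the POLK sgRNA and none fell (adjusted p under 0.05 over 13930 genes, from the quasi-likelihood test of edgeR). The transcriptome moved so broadly that this must be read against the whole table, in which 32.8% of tested genes were higher, 31.6% were lower and 64.3% were called in either direction. The enzymes were thus called in 5 of 10 cases, and every call was an increase. The median log2 fold change of the 10 was 0.13, against 0.01 for all genes tested. SHMT2 and ALDH1L2 lie on chromosome 12, and the median of the 8 enzymes outside it was 0.05. The CPM values of the groups did not overlap in 7 of the 10, beside 67.7% of all genes tested. An increase of at least 0.32 on the log2 scale with an adjusted p under 0.05 was found for PSAT1, SHMT2 and ALDH1L2, beside 16.0% of genes tested. Of the 8 enzymes outside chromosome 12 only 1, PSAT1, reached it. In bulk RNA fewer cells of a type and less RNA per cell cannot be told apart. All 10 enzymes passed the filter on low counts. When the test itself asked for a change beyond 0.32, the calls of SHMT2 and ALDH1L2 held and those of PHGDH, PSAT1 and SHMT1 were lost.

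**Figure D1:**
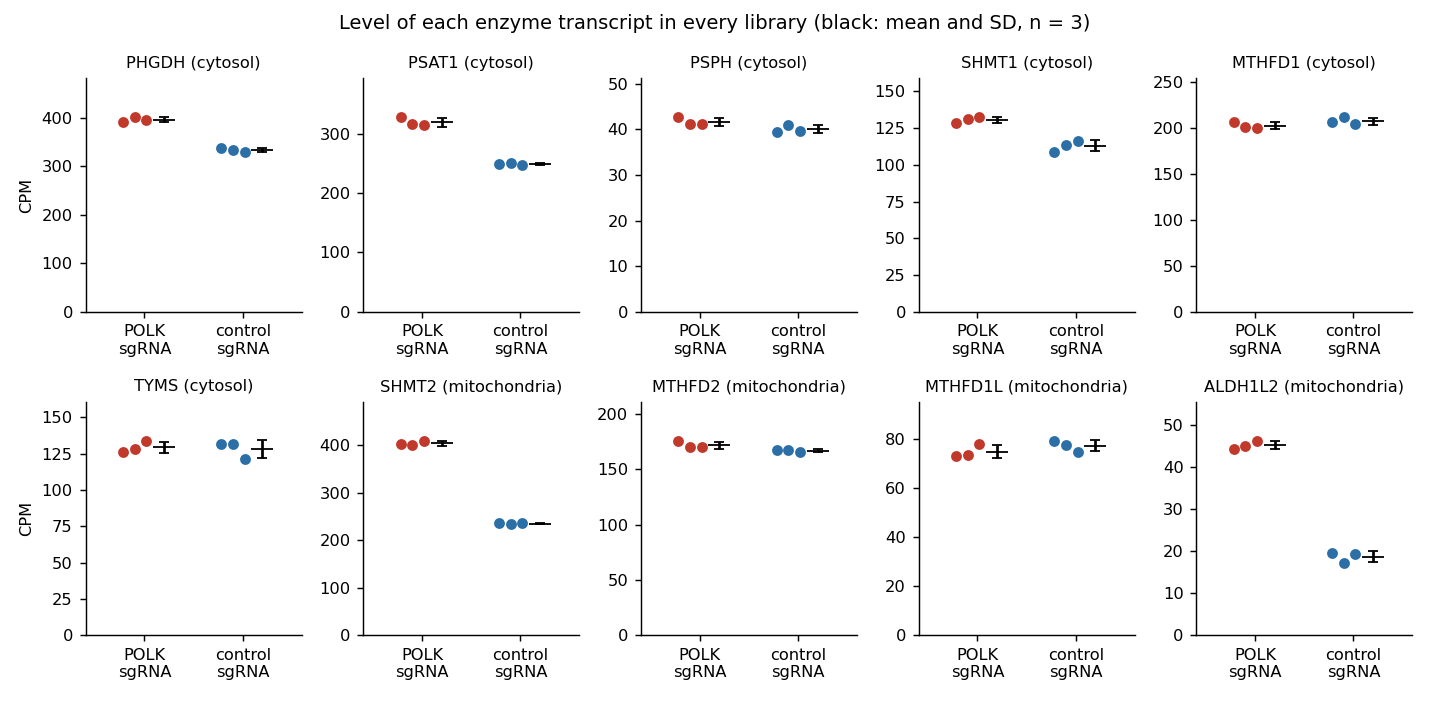
Level of each of the 10 transcripts in CPM (vertical axes from 0) in the 3 POLK sgRNA libraries (red) and the 3 control sgRNA libraries (blue), with mean and SD in black. SHMT2 and ALDH1L2 show the widest gaps between groups, PHGDH, PSAT1 and SHMT1 smaller ones, and MTHFD1, MTHFD1L and TYMS overlap.

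Sequence at the gene starts is shown for PSAT1 and SHMT1, which rose on separate chromosomes. PHGDH, which also rose, is not printed. Stretches of MTHFD1L and MTHFD1 are shown around motif matches. MTHFD1L holds the letters of the element through which ATF4 and C/EBP factors are known to bind. Whether any of these letters bear on the fold changes was not tested. RefSeq windows (GRCh38.p14) of 250 bases before to 50 after a gene's start were matched by symbol for 7 of the 10 enzymes, all but PSPH, SHMT2 and ALDH1L2. In lower case, 5′ to 3′ on the gene's strand, these are the 250 bases before the start of PSAT1 at chr9:78296875-78297124 (plus strand), 237 bases before the start of SHMT1 at chr17:18363564-18363800 (minus strand), the stretch around the element in MTHFD1L at chr6:150866347-150866374 (plus strand) and the stretches around the E-box letters in MTHFD1L at chr6:150866322-150866347 and in MTHFD1 at chr14:64388328-64388353 (both plus strand). Capitals mark a match to a motif searched.
PSAT1: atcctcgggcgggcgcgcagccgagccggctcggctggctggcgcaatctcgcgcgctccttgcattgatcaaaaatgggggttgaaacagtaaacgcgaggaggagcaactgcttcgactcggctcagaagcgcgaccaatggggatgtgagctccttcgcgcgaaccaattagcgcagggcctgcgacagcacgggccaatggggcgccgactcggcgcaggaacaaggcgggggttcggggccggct
SHMT1: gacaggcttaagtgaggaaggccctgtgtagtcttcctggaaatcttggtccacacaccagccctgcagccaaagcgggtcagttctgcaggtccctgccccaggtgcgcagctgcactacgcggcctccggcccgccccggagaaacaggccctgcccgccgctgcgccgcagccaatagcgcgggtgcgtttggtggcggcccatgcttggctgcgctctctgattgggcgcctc
MTHFD1L, ATF4 and C/EBP letters: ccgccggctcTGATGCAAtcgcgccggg
MTHFD1L, E-box letters: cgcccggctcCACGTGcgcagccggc
MTHFD1, E-box letters: agtccctaagCACGTGggttgggttg

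The letters searched on both strands of each 300-base window were TGATGNAA for the ATF4 and C/EBP element and CACGTG for the E-box that MYC binds. TTTNGCGC was searched as a single form of the site of E2F factors. The matches shown overlap no match of another motif. TGATGNAA stood in 3 of the 10 windows of the 7 enzymes, beside 3.62% of all 35116 windows. All 3 are overlapping windows of MTHFD1L that hold the same site, so shares per window count that site more than once. CACGTG stood in 4 of the 10 windows, in MTHFD1 and in the same windows of MTHFD1L, beside 7.26% of all windows. TTTNGCGC was in none of the 7, beside 1.79% of all windows. Other forms of the E2F site were not searched, so a site of E2F factors may still be present in these windows. The windows of PHGDH, PSAT1 and SHMT1, which rose, held no match to any of the 3 motifs, which says only that these letters are not in those windows.

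The first steps of serine synthesis rose and the last did not pass the test. PHGDH (chromosome 1, 119648411 to 119744226 on the plus strand, GRCh38), the NAD-dependent dehydrogenase that commits 3-phosphoglycerate to serine, had 391, 401 and 396 CPM in the POLK sgRNA libraries, against 337, 333 and 329 CPM in the control libraries. All 3 POLK sgRNA libraries lay above all 3 control libraries. The means were 396 ± 4.73 CPM with the POLK sgRNA and 333 ± 3.95 CPM with the control sgRNA (SD, n = 3 each), a log2 fold change of 0.25 (SE 0.02, edgeR adjusted p = 5.5e-12).

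PSAT1 (chromosome 9, 78297143 to 78330093, plus strand), the aminotransferase of the second step, rose most of the 3. It had 328, 316 and 314 CPM with the POLK sgRNA, against 249, 251 and 247 CPM with the control sgRNA. The groups did not overlap, with means of 319 ± 7.39 CPM with the POLK sgRNA and 249 ± 1.98 CPM with the control sgRNA and a log2 fold change of 0.36 (SE 0.02, edgeR adjusted p = 1.8e-15). PSPH (chromosome 7, 56011051 to 56051604, minus strand), the phosphatase that releases free serine, had 42.7, 41.2 and 41.2 CPM with the POLK sgRNA, against 39.4, 41.0 and 39.7 CPM with the control sgRNA. The groups did not overlap, though by a narrow margin, and the difference missed the threshold (log2 fold change 0.06, 95% interval -0.01 to 0.13, edgeR adjusted p = 0.15). The interval leaves room for an increase of up to 1.09-fold.

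Of the pair of hydroxymethyltransferases, which share a reaction and differ in compartment, the mitochondrial one rose further. SHMT2 (chromosome 12, 57229327 to 57234935, plus strand) had 401, 400.2 and 408 CPM with the POLK sgRNA, against 235, 233 and 235 CPM with the control sgRNA, a log2 fold change of 0.78 (SE 0.02, edgeR adjusted p = 3.9e-25). SHMT1 (chromosome 17, 18327860 to 18363563, minus strand), the cytosolic enzyme, had 128, 131 and 132 CPM with the POLK sgRNA, against 109, 113 and 116 CPM with the control sgRNA, a log2 fold change of 0.21 (SE 0.03, edgeR adjusted p = 2.5e-08). Neither gene's groups overlapped. Within each library the log2 ratio of SHMT2 to SHMT1 counts, from which depth cancels, was 1.63 ± 0.0171 with the POLK sgRNA and 1.06 ± 0.0470 with the control sgRNA (SD, n = 3 each). The difference of 0.57 (SE 0.03) corresponds to a 1.48-fold higher SHMT2 to SHMT1 ratio. SHMT2 lies on chromosome 12, where 77.4% of tested genes were higher. Against the median of the 20 genes on each side, SHMT2 stood 0.15 higher and SHMT1 0.18 higher. On that measure SHMT2 did not exceed SHMT1, and the part of the chromosome in the ratio was not tested.

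The enzymes that carry the folate-bound unit onward in mitochondria did not move as a group. ALDH1L2 (chromosome 12, 105019784 to 105084577, minus strand), which oxidises mitochondrial 10-formyltetrahydrofolate to carbon dioxide with gain of NADPH, rose most of all 10. It had 44.3, 44.8 and 46.1 CPM with the POLK sgRNA, against 19.6, 17.1 and 19.3 CPM with the control sgRNA, a log2 fold change of 1.28 (SE 0.04, edgeR adjusted p = 6.0e-23). Its lowest POLK sgRNA library stood above 2 times its highest control library.

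MTHFD2 (chromosome 2, 74198562 to 74217565, plus strand), the dehydrogenase and cyclohydrolase that follows SHMT2, had 175, 169.7 and 170.0 CPM with the POLK sgRNA, against 167, 167 and 166 CPM with the control sgRNA. The groups did not overlap, the gap was small, and the difference missed the threshold (log2 fold change 0.04, 95% interval -0.01 to 0.09, edgeR adjusted p = 0.12). It passed when libraries were scaled by their size alone (log2 fold change 0.06, edgeR adjusted p = 0.030). MTHFD1L (chromosome 6, 150865549 to 151101887, plus strand), the synthetase that releases formate, had 72.9, 73.2 and 77.6 CPM with the POLK sgRNA, against 79.0, 77.5 and 74.5 CPM with the control sgRNA. The groups overlapped through POLK sgRNA library 3 and control library 3, and the difference missed the threshold (log2 fold change -0.05, 95% interval -0.11 to 0.02, edgeR adjusted p = 0.19). Without POLK sgRNA library 3 it passed as lower (log2 fold change -0.07, edgeR adjusted p = 0.044).

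In the cytosol, MTHFD1 and TYMS did not pass the test. MTHFD1 (chromosome 14, 64388031 to 64463457, plus strand), which joins in 1 protein the activities that mitochondria divide between MTHFD2 and MTHFD1L, had 206, 201 and 199 CPM with the POLK sgRNA, against 206, 211 and 204 CPM with the control sgRNA. The groups overlapped (log2 fold change -0.03, 95% interval -0.08 to 0.02, edgeR adjusted p = 0.23). TYMS (chromosome 18, 657604 to 673578, plus strand), which makes thymidylate for DNA, had 126, 128 and 134 CPM with the POLK sgRNA, against 132, 132 and 121 CPM with the control sgRNA. These groups overlapped (log2 fold change 0.01, 95% interval -0.05 to 0.07, edgeR adjusted p = 0.79), and the interval runs from 0.963-fold to 1.05-fold.

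Set by compartment, 2 of 4 mitochondrial enzymes rose (median log2 fold change 0.41) and 3 of 6 cytosolic enzymes rose (median 0.13), beside 32.8% of all genes tested. Both mitochondrial calls, SHMT2 and ALDH1L2, lie on chromosome 12, where 77.4% of tested genes were higher, so the contrast between compartments rests on 2 genes of that chromosome. The mitochondrial range was the wider, from -0.05 for MTHFD1L to 1.28 for ALDH1L2, against -0.03 for MTHFD1 to 0.36 for PSAT1 in the cytosol. The log2 ratio of ALDH1L2 to MTHFD1 counts was -2.17 ± 0.0541 with the POLK sgRNA and -3.47 ± 0.131 with the control sgRNA, a difference of 1.31 (SE 0.08). That of MTHFD2 to MTHFD1 was -0.24 ± 0.00763 with the POLK sgRNA and -0.31 ± 0.0213 with the control sgRNA, a difference of 0.07 (SE 0.01), and that of MTHFD1L to MTHFD1 was -1.44 ± 0.0714 with the POLK sgRNA and -1.43 ± 0.0380 with the control sgRNA, a difference of -0.01 (SE 0.05). Libraries of the groups overlapped for MTHFD1L to MTHFD1 and for none of the other 3 ratios. With 3 libraries against 3 an exact two-sided permutation test cannot go below 0.10, which was its p for SHMT2 to SHMT1, ALDH1L2 to MTHFD1 and MTHFD2 to MTHFD1 (0.13 after Benjamini-Hochberg adjustment over the 4 ratios), and p was 0.80 for MTHFD1L to MTHFD1. The ratio shift was thus widest for ALDH1L2 and SHMT2 and small for MTHFD2 among these 4 ratios. MTHFD1 joins the activities of MTHFD2 and MTHFD1L and not that of ALDH1L2. The ALDH1L2 to MTHFD1 ratio therefore sets different reactions side by side. With MTHFD1 at -0.03, its shift of 1.31 mostly repeats the 1.28 of ALDH1L2. ALDH1L1, the cytosolic relative of ALDH1L2, was too low to test.

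**Figure D2:**
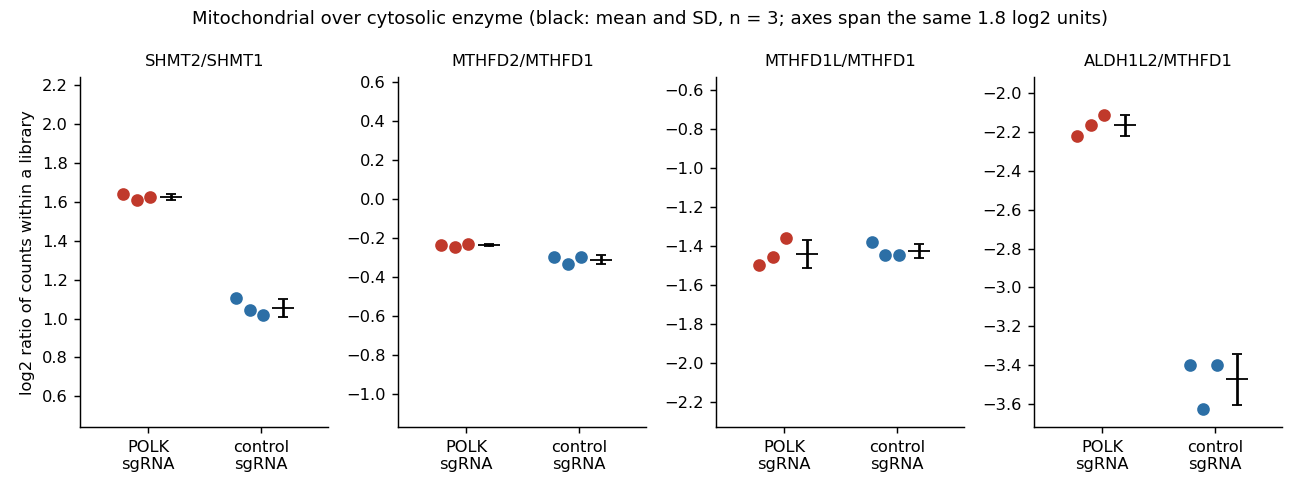
The log2 ratio of mitochondrial to cytosolic enzyme counts within each library (vertical axes of equal span), for POLK sgRNA (red) and control sgRNA (blue) libraries, with mean and SD in black. The ratio is higher with the POLK sgRNA by 0.57 for SHMT2 to SHMT1 and by 1.31 for ALDH1L2 to MTHFD1, which differ in reaction. The MTHFD1L to MTHFD1 ratios overlap.

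Levels between genes were compared as CPM per kilobase of the principal GENCODE 29 transcript. With the POLK sgRNA the order was SHMT2 at 159 ± 1.74, PHGDH at 153 ± 1.83, PSAT1 at 146 ± 3.38, TYMS at 77.7 ± 2.43, MTHFD1 at 64.5 ± 1.15, SHMT1 at 53.0 ± 0.815, MTHFD2 at 38.5 ± 0.708, MTHFD1L at 20.7 ± 0.731, PSPH at 19.1 ± 0.386 and ALDH1L2 at 5.97 ± 0.126 CPM per kilobase. With the control sgRNA PHGDH came first at 129 ± 1.53, PSAT1 followed at 114 ± 0.907 CPM per kilobase and SHMT2 next at 92.5 ± 0.400 CPM per kilobase, and the order of the other 7 was the same. No neighbours in either order overlapped between libraries. ALDH1L2, for all its increase, remained the lowest. The order rests on transcript length. With the union of all annotated exons in its place PSAT1 came first in both groups, and PHGDH came after PSAT1, SHMT2 and TYMS in both.

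The chromosomal surroundings of the enzymes separated them into sets. SHMT2 and ALDH1L2, the largest increases, both lie on chromosome 12, where 571 of 738 tested genes (77.4%) were higher and 9.76% lower, against 30.3% and 32.8% of 13192 tested genes elsewhere. Of the 40 genes nearest to SHMT2 (20 on each side, averaging 1 CPM or more) 38 were higher and 1 lower, and their median log2 fold change was 0.63. Its own 0.78 lay 0.15 above that median, and 10 of the 40 neighbours had a larger value. Of the 40 genes nearest to ALDH1L2 38 were higher and 1 lower with a median of 0.57, and ALDH1L2 exceeded all 40, by 0.70 over the median.

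The other enzymes lie among neighbours whose median was close to 0, with 1 exception. Neighbour medians were 0.03 for PHGDH, -0.02 for PSAT1 and 0.03 for SHMT1, so that these 3 stood 0.22, 0.38 and 0.18 above their surroundings, with 5, 6 and 7 of 40 neighbours above them. With 10 genes on each side the neighbour median of PHGDH was 0.11, which leaves it less far above its surroundings. MTHFD2 lies on chromosome 2, where 23 of its 40 neighbours were lower and 7 higher with a median of -0.15, and MTHFD2 stood 0.19 above that median. The shift was not local to MTHFD2. Of the 821 other chromosome 2 genes averaging 1 CPM or more 57.4% were lower and 17.2% higher, with a median of -0.14. Over all genes at that level 32.8% were lower and 34.3% higher. For PSPH, MTHFD1 and MTHFD1L the distance to the neighbour median was 0.03 or less, with 20 of 40 neighbours on each side of the value. TYMS, near the end of its chromosome arm with 23 neighbours, stood 0.02 above theirs. With 10 genes on each side these 4 medians were 0.06 for PSPH, -0.07 for MTHFD1, -0.09 for MTHFD1L and -0.07 for TYMS. Outside chromosome 12, 3 of 8 enzymes (37.5%) were higher, against 30.3% of tested genes there. What part the neighbourhood had in the values of SHMT2, ALDH1L2 and MTHFD2 was not tested.

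**Figure D3:**
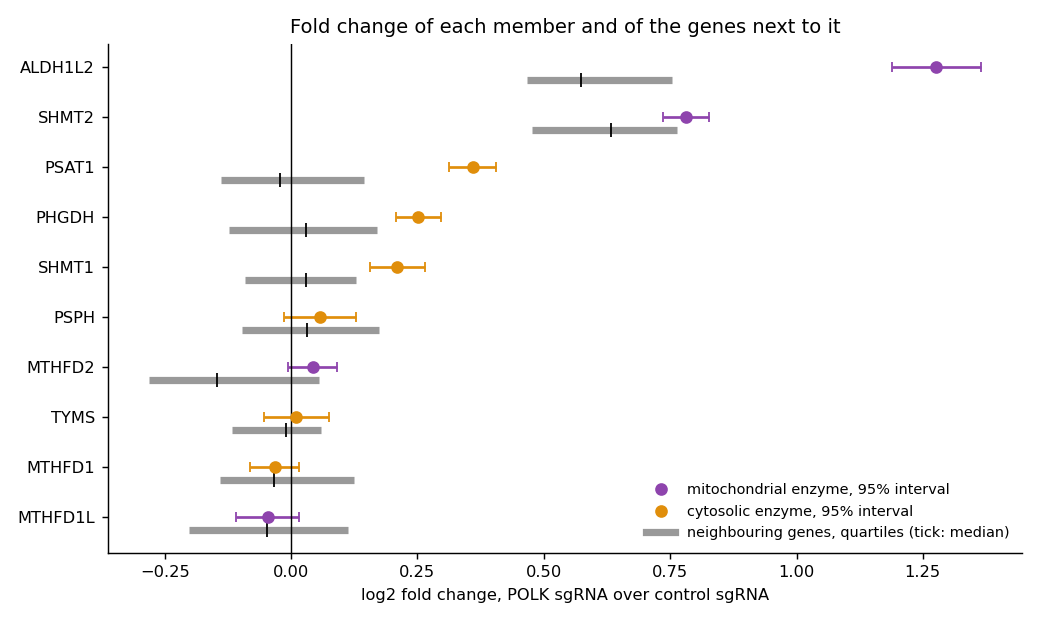
Log2 fold change (POLK sgRNA over control sgRNA, horizontal axis) of each enzyme with its 95% interval, mitochondrial in purple and cytosolic in orange, above the quartiles (grey) and median (tick) of its neighbouring genes. SHMT2 lies at the upper edge of its neighbours' quartiles, and ALDH1L2, PSAT1, PHGDH and SHMT1 lie beyond theirs.

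**Figure D4:**
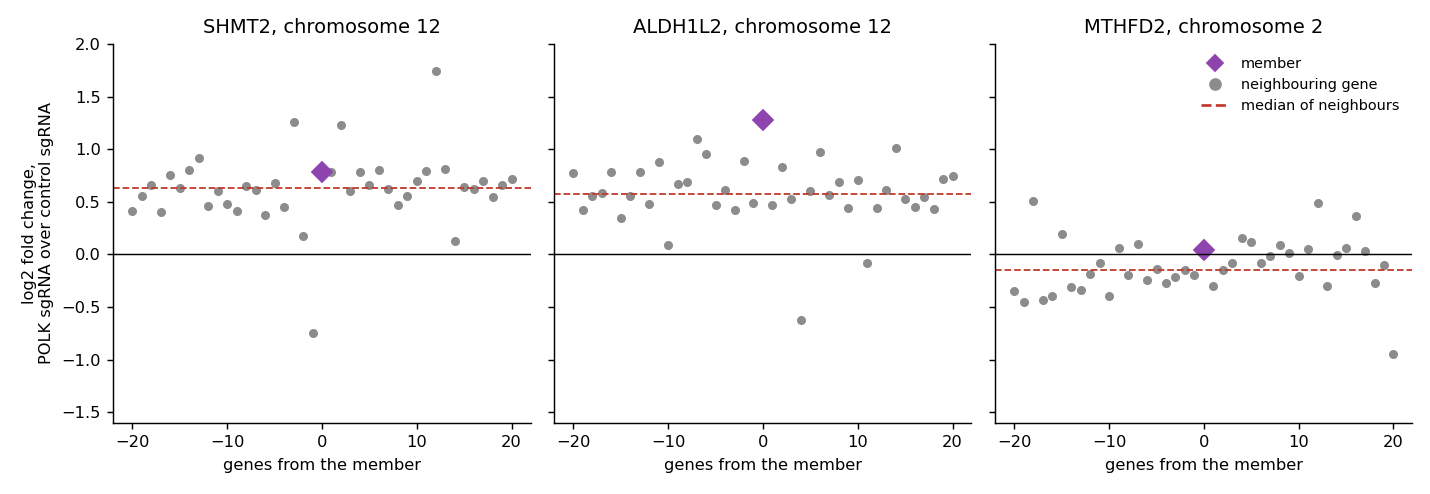
Log2 fold change of the 20 tested genes on each side of SHMT2, ALDH1L2 and MTHFD2, by number of genes from the enzyme. Nearly all points around SHMT2 and ALDH1L2 lie above 0, with medians of 0.63 and 0.57, and most around MTHFD2 lie below it, with a median of -0.15.

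Some reads may be shared with other genes. The library kit does not mark strand, and exons of 6 of the 10 enzymes overlap on the opposite strand with a gene that was also counted. The widest, of MTHFD2 with SLC4A5, covers 1324 exon bases, and SLC4A5 averaged 3.33 counts in POLK sgRNA libraries and 5 in control libraries. The overlap of TYMS with ENOSF1 covers 967 exon bases. ENOSF1 averaged 1086 counts in POLK sgRNA libraries and 818 in control libraries, against 6575 and 6217 for TYMS, and rose by 0.34 on the log2 scale (edgeR adjusted p = 1.2e-07). ALDH1L2 shares 145 exon bases with C12orf45, which averaged 738 counts with the POLK sgRNA and 502 with the control sgRNA, and SHMT2 shares 33 with NDUFA4L2. Another 16 pseudogenes are named after 6 of the enzymes, 7 of them after MTHFD2 and 4 after PSAT1. None of the 16 is among the genes counted. Values of these 6 enzymes are uncertain to the extent that reads were divided between copies.

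Around the 10 enzymes, the other folate genes were divided. Of 14 tested folate enzymes and carriers 3 were higher and 4 lower, and the list's median log2 fold change was -0.03. The counts of this list and of each list below stand beside 32.8% higher and 31.6% lower among all genes tested. QDPR, which recycles the related cofactor tetrahydrobiopterin, fell by 0.14 on the log2 scale. The folate receptor gene FOLR1 rose to 0.421 ± 0.0607 CPM with the POLK sgRNA, against 0.0572 ± 0.0314 CPM with the control sgRNA, which remains close to undetected. The number of folate genes higher was 5 without control library 3.

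The glycine cleavage system, which takes a carbon unit from the glycine that SHMT2 produces, held a large increase in 1 gene. GLDC, its decarboxylase, rose to 18.3 ± 1.01 CPM with the POLK sgRNA, against 5.15 ± 0.273 CPM with the control sgRNA (log2 fold change 1.83, SE 0.07, edgeR adjusted p = 2.1e-22). DLD, the dehydrogenase it shares with other mitochondrial complexes, fell to 123 ± 2.94 CPM with the POLK sgRNA, against 168 ± 2.35 CPM with the control sgRNA (log2 fold change -0.44). LIPT1 had 1.91 CPM with the POLK sgRNA and 1.72 CPM with the control sgRNA and did not pass. AMT and GCSH, the other parts of the system, averaged under 1 CPM in both groups. Of the 5 genes tested 1 rose and 1 fell.

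Among users of the carbon units, the methionine cycle and transsulfuration list had 5 of 11 tested genes higher and 3 lower, with a median log2 fold change of 0.08. AHCY, which clears S-adenosylhomocysteine, rose to 333 ± 4.43 CPM with the POLK sgRNA, against 274 ± 1.42 CPM with the control sgRNA (log2 fold change 0.28). MAT2A, which makes S-adenosylmethionine, fell to 246 ± 12.4 CPM with the POLK sgRNA, against 324 ± 2.66 CPM with the control sgRNA (log2 fold change -0.40), and its liver form MAT1A rose to 0.766 CPM with the POLK sgRNA, against 0.149 CPM with the control sgRNA. In purine synthesis 3 of 13 rose and 6 fell, with a median of -0.05 and values for the 3 clearest of 0.20 for IMPDH2, -0.22 for PRPS1 and -0.16 for IMPDH1. In pyrimidine deoxynucleotide supply 2 of 10 rose and 5 fell, with a median of -0.09. The thymidine kinase gene TK1 fell to 141 ± 1.42 CPM with the POLK sgRNA, against 188 ± 3.68 CPM with the control sgRNA (log2 fold change -0.41), its mitochondrial counterpart TK2 fell by 0.41 on the log2 scale and the ribonucleotide reductase subunit RRM2B by 0.27. The number of these genes higher was 1 on leaving out any library but control library 3, with the replicate block, with DESeq2 or with its size factors.

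Of 13 tested genes for serine transport and for other uses of serine 5 were higher and 8 lower, and the median log2 fold change was -0.15. The neutral amino acid exchanger SLC1A5 rose to 350.2 ± 8.15 CPM with the POLK sgRNA, against 284 ± 1.82 CPM with the control sgRNA (log2 fold change 0.30). The transporter SLC38A2 fell by 0.43 on the log2 scale although it lies on chromosome 12, and PTDSS1, which puts serine into phospholipid, fell by 0.33. The S phase and proliferation list, in whose phase TYMS is known to peak, had 3 of 18 higher and 10 lower with a median of -0.09. PCNA, the sliding clamp of replication, rose by 0.48, while CCNE1 and UHRF1 fell by 0.39 and 0.19. The part of these changes in the TYMS value was not tested.

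Of the 10 known regulators of the pathway 4 were higher and 2 lower, and the median log2 fold change was 0.05. ATF4 rose to 332 ± 10.8 CPM with the POLK sgRNA, against 231 ± 5.36 CPM with the control sgRNA (log2 fold change 0.52, edgeR adjusted p = 9.8e-19). E2F1 rose to 71.9 ± 5.26 CPM with the POLK sgRNA, against 33.6 ± 0.660 CPM with the control sgRNA (log2 fold change 1.10), and MYC fell to 23.0 ± 1.68 CPM with the POLK sgRNA, against 33.4 ± 0.552 CPM with the control sgRNA (log2 fold change -0.53). The number of regulators higher was 7 with library size alone, and the number lower was 1 without POLK sgRNA library 2 or control library 1. Of 20 ATF4 targets outside the pathway 15 rose and 2 fell, with a median of 0.29, and the clearest were XPOT at 0.75, TRIB3 at 0.87 and ASNS at 0.60, of which XPOT lies on chromosome 12. These 3 have the smallest p of the 20, and the list ran from -0.35 to 1.69. Its median of 0.29 lies between PHGDH at 0.25 and PSAT1 at 0.36. Of the other enzymes SHMT2 rose by 0.78 and ALDH1L2 by 1.28, and PSPH, MTHFD2 and MTHFD1L did not pass the test. The part of ATF4 in the enzyme values was not tested.

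**Figure D5:**
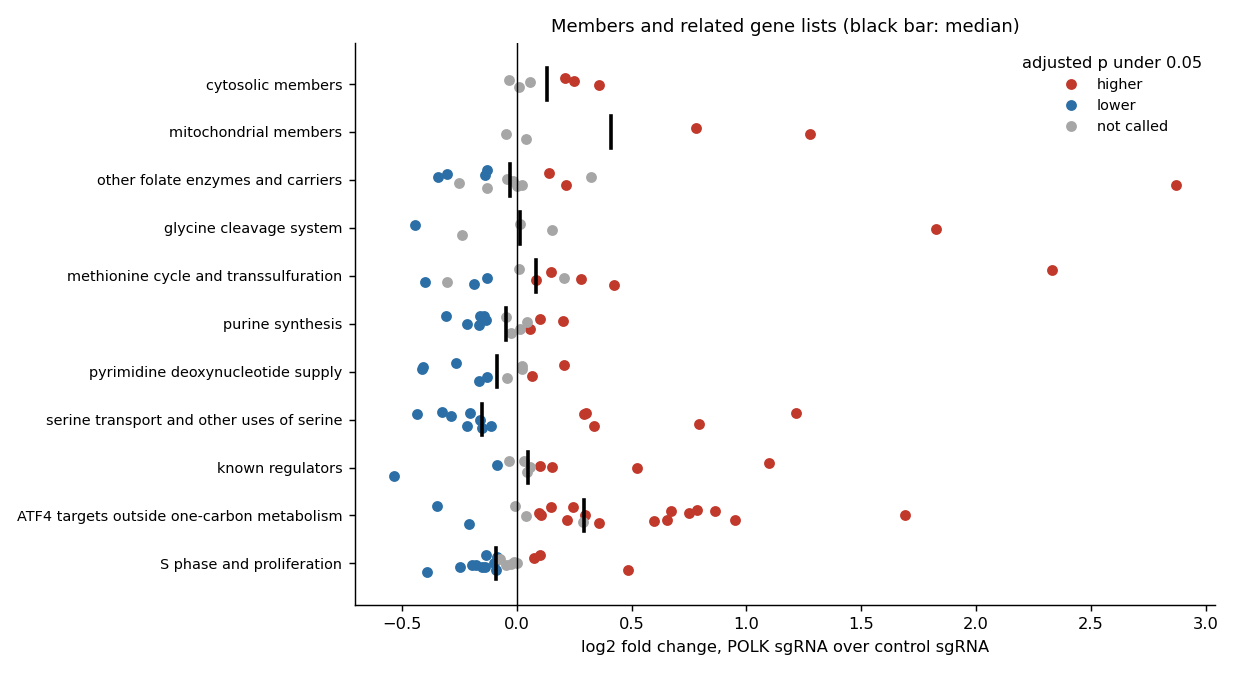
Log2 fold change (POLK sgRNA over control sgRNA, horizontal axis) of every tested gene in each list, red for higher, blue for lower and grey for genes that did not pass, with a black bar at the list's median. The mitochondrial enzymes have a median of 0.41, with SHMT2 and ALDH1L2, both on chromosome 12, at 0.78 and 1.28. MTHFD2 and MTHFD1L lie at 0.04 and -0.05. The ATF4 targets have a median of 0.29, and the lists of folate, purine and deoxynucleotide genes have medians from -0.09 to -0.03.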

How the data were processed

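RNA was sequenced from 6 libraries of A375 cells. Per the labels' protocols, editing used the Alt-R CRISPR-Cas9 system and libraries the TruSeq RNA V2 kit. The submitters' processing notes name GRCh38, STAR, Trimmomatic, FastQC and DESeq2, with no versions, and no label names the counting tool or annotation. The authors deposited raw counts per gene, not normalized, as whole numbers.

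Columns were matched to samples by name. In R 4.3.3 genes were filtered by filterByExpr at a minimum count of 10 and a minimum total of 15 (13930 genes, 82.3%, remained), scaled by TMM (factors 0.991 to 1.007) and compared by edgeR 4.0.16's quasi-likelihood test (robust, two-sided, no covariates, Benjamini-Hochberg threshold 0.05). The code was tested on simulated counts. Standard errors were derived from each log2 fold change and its F statistic. CPM uses TMM-scaled library sizes. Positions, exon lengths and neighbours came from GENCODE 29 (GRCh38), and promoter windows from RefSeq. Ratios were tested by exact permutation. Members and lists were chosen with earlier results of these data known. Named genes are the 10 enzymes, POLK, ATF4 and the 3 of smallest p in each of 9 lists, of which 1 gene is not reported here. Genes named as markers, for low level or for overlap were chosen after their values were seen. Alternatives were other scalings and filters, a replicate block, DESeq2 1.42.0, limma-voom (limma 3.58.1), glmTreat against a log2 change of 0.32 and each library left out. The subtraction of neighbour medians and the background outside chromosome 12 were chosen after seeing the data.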

Additional observations from a re-analysis of the deposited data

How the results depend on the processing

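SHMT2 and ALDH1L2 kept their direction and call under all 14 alternatives, with log2 fold changes of 0.77 to 0.80 and 1.21 to 1.30. Tested against a minimum log2 change of 0.32 (glmTreat), 2 enzymes were higher (SHMT2 and ALDH1L2) and PHGDH, PSAT1 and SHMT1 lost their calls, since this test asks for a larger change, with adjusted p of 1.0, 0.078 and 1.0. Without a minimum, 41 of the 114 tested genes of the related lists were higher and 41 lower, beside 32.8% and 31.6% of all genes tested. Under the test with the minimum, 16 of the 114 were higher and 6 lower, beside 1653 and 1224 of 13930 genes. POLK, QDPR, AHCY, IMPDH1, IMPDH2, PRPS1, PTDSS1, RRM2B, SLC1A5, CCNE1 and UHRF1 lost their calls there too, with their log2 fold changes as reported. Leaving out 1 library gave 0 to 1 enzymes lower, the 1 being MTHFD1L without POLK sgRNA library 3. The MTHFD1L to MTHFD1 difference ranged from -0.0534 to 0.0164 with 1 library left out and changed sign without POLK sgRNA library 1 or control library 1 (0.0164 and 0.00789), the cause of which was not tested. Same-numbered libraries did not deviate together (correlations -0.01, -0.04 and 0.01), so the numbers do not pair them, and with the replicate block 4483 genes were higher and 4290 lower, 5 enzymes higher and 0 lower. Neighbour medians with 10 or 40 genes on each side were 0.61 and 0.62 for SHMT2 and 0.61 and 0.58 for ALDH1L2. With neighbour medians subtracted, an added step with no test, the values were 0.15 for SHMT2 and 0.70 for ALDH1L2. All 10 enzymes had 838 counts or more in every library. The values are limited by 3 libraries a group, which may come from 1 edited population each.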

Other observations

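Some genes of the related lists, chosen here after their values were seen, also moved. PCK2, the mitochondrial enzyme that makes phosphoenolpyruvate, rose to 46.8 ± 0.649 CPM with the POLK sgRNA, against 27.2 ± 1.64 CPM with the control sgRNA (log2 fold change 0.79). CTH, which releases cysteine in transsulfuration, rose to 13.4 ± 0.365 CPM with the POLK sgRNA, against 10.0 ± 0.157 CPM with the control sgRNA (log2 fold change 0.42), and the cystine importer SLC7A11 to 104 ± 6.06 CPM with the POLK sgRNA, against 65.0 ± 2.00 CPM with the control sgRNA (log2 fold change 0.67). The exchanger SLC1A4, which carries serine, rose to 69.6 ± 2.93 CPM with the POLK sgRNA, against 55.2 ± 1.72 CPM with the control sgRNA (log2 fold change 0.34). SFXN1, which brings serine into mitochondria, moved the other way at 144 ± 3.76 CPM with the POLK sgRNA, against 156 ± 2.59 CPM with the control sgRNA (log2 fold change -0.11, edgeR adjusted p = 2.0e-04). ALDH1L1, the cytosolic relative of ALDH1L2, was too low to test, at 0.225 ± 0.0460 CPM with the POLK sgRNA and 0.0616 ± 0.0192 CPM with the control sgRNA.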
